A study of Mus musculus with 6 samples.

Results

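The genes described here mark macrophages and other leukocytes inside pancreatic islets, the clusters of hormone-secreting cells in the pancreas, β cells among them. A list of 37 gene symbols chose them: macrophage, MHC class II, T cell and B cell genes, each taken where a probe set of the array carried that single symbol. Of the 37, 36 were measured, each by 1 probe set, among 22180 genes on the array. The probe set that carries Cd74 also carries another symbol, so that gene was not analysed here.

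Islets came from C57BL/6J mice aged 5 weeks, all labelled female. The Sel1L-deficient group (3 arrays) carried floxed Sel1L alleles and an Ins1-driven Cre (Ins1Cre), which deletes Sel1L, an adaptor of the HRD1 ubiquitin ligase of ER-associated degradation, in β cells. The wildtype group (3 arrays) were littermates with the same floxed alleles (Sel1L f/f) and are not stated to carry Cre, so deletion of Sel1L and presence of the Cre allele cannot be told apart. The Cre acts in β cells, and the design leaves the gene intact in leukocytes. Islets were picked by hand and kept overnight in culture before RNA was taken, and the labels do not say how many animals an array holds. Any p-value therefore measures the spread between these samples.

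Islets hold a resident population of macrophages that lie close to blood vessels, take up material released by β cells and present it on MHC class II molecules. Their survival depends on the receptor CSF1R and its ligands, and their gene program on the transcription factor PU.1, the product of Spi1. Lymphocytes are scarce in healthy islets and enter in autoimmune insulitis.

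Values are log2 RMA summaries, in which 1 unit is a doubling, and array medians ran from 3.08 to 3.16. Sel1l stood at 8.46, 8.56 and 8.76 in wildtype and at 7.73, 7.65 and 7.68 in Sel1L-deficient islets. The endocrine hormone genes Ins2, Gcg and Sst had group means of 10.6 or more. Replicate 3 of both genotypes went against the label female: Xist, which stood at 9.93 or more elsewhere, read 2.93 and 3.08 on these arrays, and Kdm5d, Eif2s3y and Uty of the Y chromosome read 5.39 or more there and 2.07 or less elsewhere. With a covariate for these arrays, 0 members were called, as in the fit without it.

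No macrophage or leukocyte gene passed the test for a difference between the genotypes. Of the 36 measured members 0 rose and 0 fell (limma with Benjamini-Hochberg adjustment over all 22180 genes, threshold 0.05), where 0.243% of all genes passed, 0.0902% higher and 0.153% lower. The smallest adjusted p among the members was 0.431. At an unadjusted p under 0.05 there was 1 member, Fcer1g, or 2.78%, against 9.48% of all genes. The values of the 2 genotypes did not overlap in 3 members, Lcp1, Cd86 and Laptm5, or 8.33%, against 15.1% of all genes. All 3 were lower in Sel1L-deficient islets, where 7.22% of all genes lay higher and 7.84% lower without overlap. In bulk islet RNA fewer leukocytes and less RNA per leukocyte cannot be told apart.

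**Figure D1:**
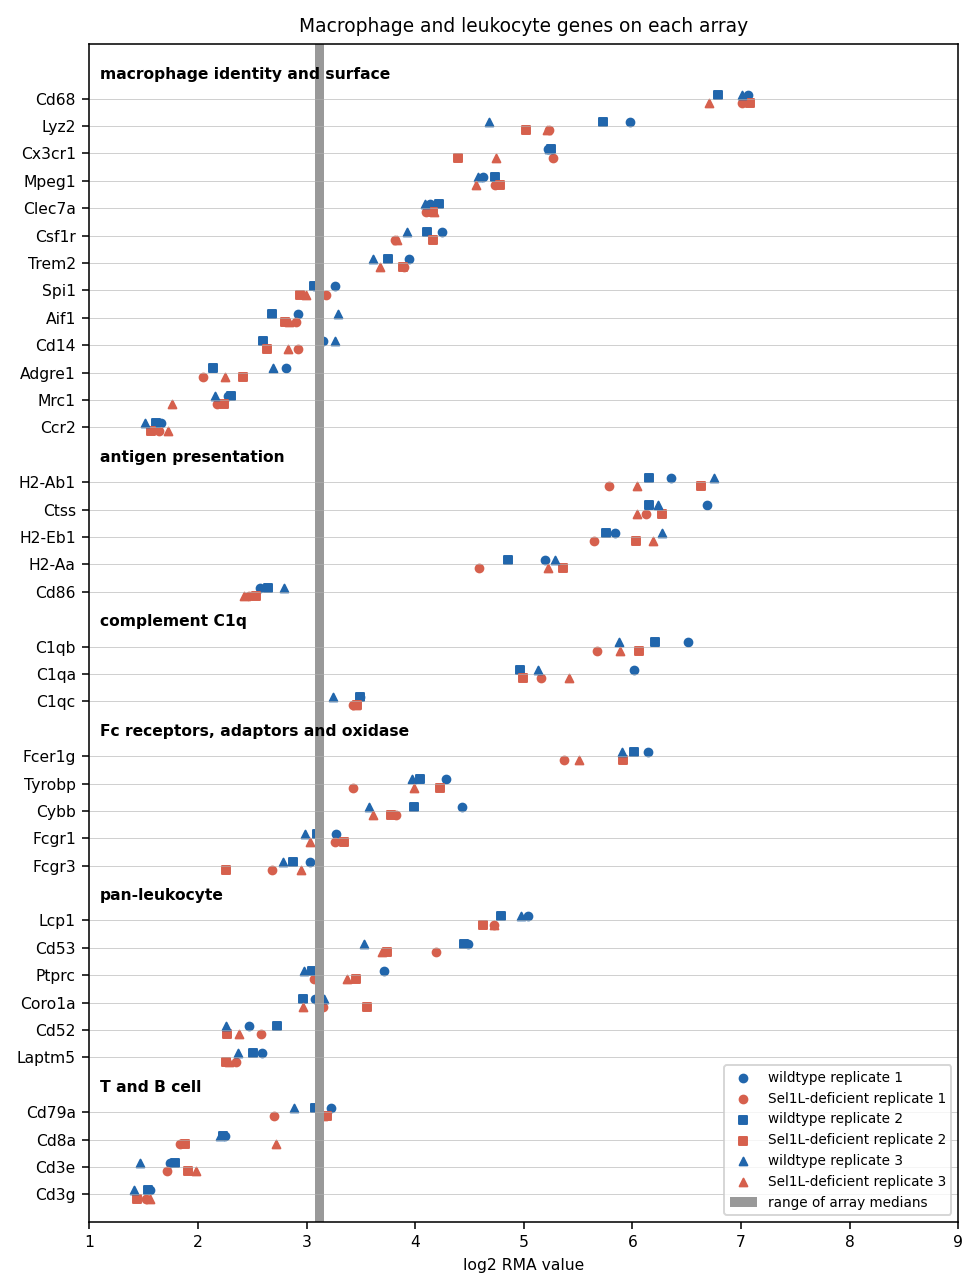
Log2 RMA values (horizontal axis) of the 36 measured macrophage and leukocyte genes on each of the 6 arrays, wildtype in blue and Sel1L-deficient in red, with a symbol for each replicate number and a grey band for the range of array medians. Blue and red points overlap for all members other than Lcp1, Cd86 and Laptm5, and T and B cell genes lie near or left of the band.

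Most differences were small and negative. The member median was -0.14, against 0.00 over all genes, and 27 of the 36 members lay below 0, or 75%, against 49.9% of all genes. With all 6 arrays, single differences ran from -0.43 for Cx3cr1 to 0.20 for Cd3e. Among the 21 members whose mean exceeded the highest array median, the median was -0.18 and 15 lay below 0, or 71.4%, against 54.3% of all genes as bright. Leaving out wildtype replicate 1 brought the median of these 21 to -0.048, and leaving out Sel1L-deficient replicate 1 brought it to -0.085. The other 15 members, of which 10 stood below the array median on every array, had means at or below the highest array median. Without a detection call, whether they stood above background was not tested.

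The median over all 36 members moved most on leaving out wildtype replicate 1. That array held the highest value of 18 of the 36 members, or 50%, against 18.6% of all genes. It held the lowest value of 0 members, against 15.6% of all genes. Without it the member median was -0.053, and 24 members lay below 0. Leaving out any other array gave a median from -0.15 to -0.11 and 22 to 28 members below 0, the 22 without Sel1L-deficient replicate 1. Between arrays of the same number, which are not stated to share a litter or a day, the median difference was -0.235 for replicate 1, 0.00 for replicate 2 and -0.01 for replicate 3. In replicate 1, 32 of 36 members were lower in the Sel1L-deficient array, against 11466 of all 22180 genes. In each of the other pairs 18 of 36 members were, against 11103 genes in replicate 2 and 10757 in replicate 3.

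**Figure D2:**
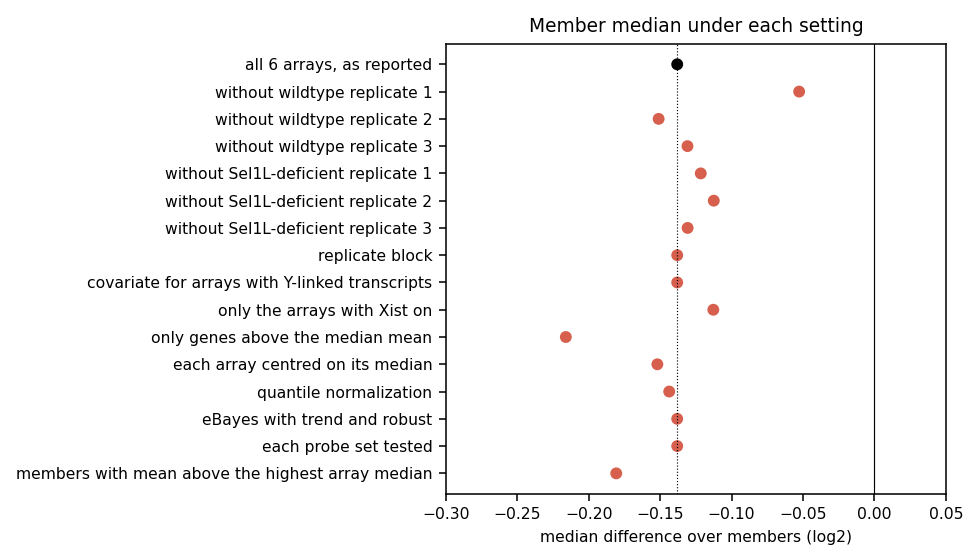
Median Sel1L-deficient minus wildtype difference over the measured macrophage and leukocyte genes (horizontal axis, log2) with all 6 arrays (black) and under each alternative (red), the dotted line marking the reported value of -0.14. The point without wildtype replicate 1, at -0.053, lies nearest to 0.

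The macrophage identity and surface genes had 0 of 13 members past the threshold, with a median difference of -0.12. Cd68, a lysosomal glycoprotein of macrophages, read 7.07, 6.79 and 7.01 in wildtype and 7.01, 7.08 and 6.71 in Sel1L-deficient islets. The groups overlapped fully, and the difference was -0.02 with a 95% interval of -0.33 to 0.29 (limma adjusted p = 0.977), or 0.09 without Sel1L-deficient replicate 3. Csf1r, the receptor for the macrophage growth factor, read 4.24, 4.11 and 3.92 in wildtype and 3.82, 4.17 and 3.83 in Sel1L-deficient islets. Its difference of -0.16 had an interval of -0.47 to 0.16, and Sel1L-deficient replicate 2 lay among the wildtype arrays. Spi1, which encodes PU.1, differed by -0.11 with an interval of -0.37 to 0.15, from means close to the array medians.

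Lyz2, the lysozyme gene of myeloid cells, varied most within a genotype. It read 5.98, 5.73 and 4.68 in wildtype and 5.23, 5.02 and 5.22 in Sel1L-deficient islets, so that wildtype held both the highest arrays and the lowest one. The difference was -0.31 with an interval of -0.99 to 0.37, and ran from -0.70 without wildtype replicate 3 (adjusted p = 0.256, the smallest of any member in any fit) to -0.05 without wildtype replicate 1. Cx3cr1, the fractalkine receptor of resident macrophages, had nearly equal wildtype values of 5.22, 5.25 and 5.23. The Sel1L-deficient arrays read 5.27, 4.39 and 4.74, so replicate 1 stood above all wildtype arrays and the others below. The difference was -0.43 ± 0.20 (SE; interval -0.89 to 0.03, limma adjusted p = 0.554), and the spread lay in the Sel1L-deficient group. It was -0.67 without Sel1L-deficient replicate 1 and -0.23 without replicate 2 of that genotype.

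Other macrophage genes were close between genotypes. Mpeg1, which encodes the pore-forming protein perforin-2, differed by 0.05 with an interval of -0.20 to 0.29. Clec7a, the β-glucan receptor dectin-1, differed by 0.00 with -0.23 to 0.22, and Trem2, a lipid-sensing receptor, by 0.05 with -0.23 to 0.34. These 3 had the narrowest intervals among the brighter macrophage genes. Adgre1, a macrophage adhesion receptor, and Mrc1, the mannose receptor, stood below the array medians on every array, as did Ccr2, the chemokine receptor of blood monocytes, at 1.51 to 1.72. Cd14, the lipopolysaccharide co-receptor, and Aif1, an actin-binding protein of activated macrophages, had means of 2.80 to 3.00 and differed by -0.21 and -0.12.

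**Figure D3:**
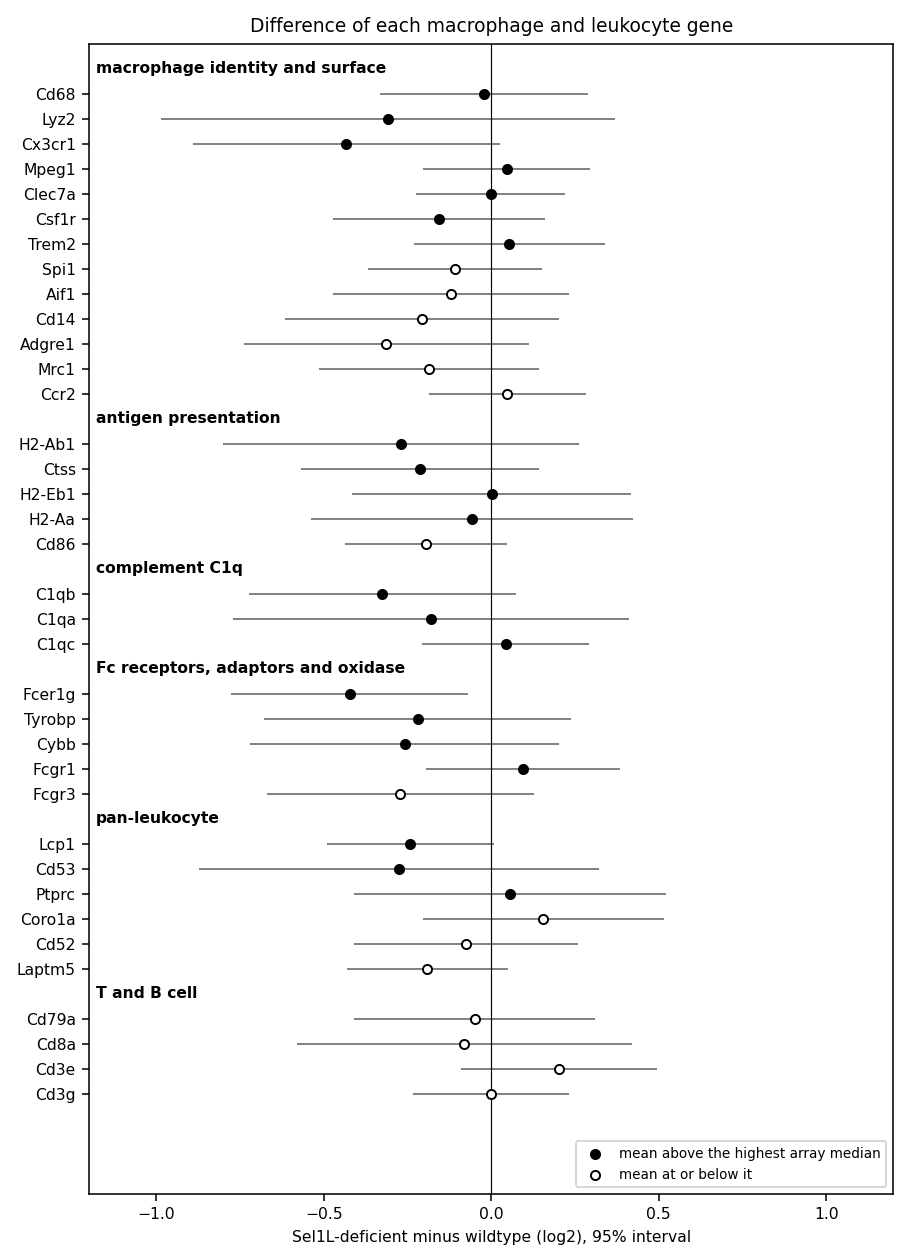
Sel1L-deficient minus wildtype difference (log2, horizontal axis) of each measured macrophage and leukocyte gene with its 95% interval from limma, filled for members whose mean lay above the highest array median and open for the rest. All intervals other than that of Fcer1g include 0.

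Antigen presentation genes had 0 of 5 members past the threshold, with a median of -0.19. The class II chains varied more between arrays than between genotypes. H2-Ab1, a class II β chain, read 6.36, 6.16 and 6.75 in wildtype and 5.79, 6.64 and 6.04 in Sel1L-deficient islets, a difference of -0.27 (interval -0.80 to 0.26). H2-Aa, the α chain that pairs with it, read 5.20, 4.85 and 5.29 in wildtype and 4.59, 5.36 and 5.22 in Sel1L-deficient islets, a difference of -0.06 (interval -0.54 to 0.42). H2-Eb1, a β chain of the second class II isotype, read 5.84, 5.75 and 6.27 in wildtype and 5.65, 6.03 and 6.19 in Sel1L-deficient islets. Its group means were equal to within 0.01, with an interval of -0.42 to 0.42. All 3 chains had their lowest value in Sel1L-deficient replicate 1. So did 10 of the 36 members in all, or 27.8%, against 16.8% of all genes. Without that array H2-Ab1 differed by -0.09, H2-Aa by 0.18 and H2-Eb1 by 0.16. The mean deviation of the 3 chains from each gene's own mean over the 6 arrays was -0.435 there and 0.33 in wildtype replicate 3, the highest.

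Class II genes share a promoter module, in which an X box is bound by the RFX complex and a Y box by NF-Y, and which works with the co-activator CIITA. The promoters of H2-Aa and H2-Eb1 are shown because these chains were, with H2-Ab1, lowest on the same array, and H2-Ab1 was not among the promoters analysed here. They are the 250 bases before the gene start from RefSeq (GRCm38.p6), at chr17:34287824-34288073 on the minus strand and chr17:34305617-34305866 on the plus strand, with an X box core (CTNGCAACT) and a Y box core (TGATTGG) in capitals.
H2-Aa: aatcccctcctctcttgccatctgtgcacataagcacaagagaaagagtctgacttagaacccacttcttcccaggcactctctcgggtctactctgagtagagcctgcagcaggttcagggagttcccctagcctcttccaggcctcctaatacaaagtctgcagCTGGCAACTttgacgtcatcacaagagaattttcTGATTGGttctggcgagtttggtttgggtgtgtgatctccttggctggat
H2-Eb1: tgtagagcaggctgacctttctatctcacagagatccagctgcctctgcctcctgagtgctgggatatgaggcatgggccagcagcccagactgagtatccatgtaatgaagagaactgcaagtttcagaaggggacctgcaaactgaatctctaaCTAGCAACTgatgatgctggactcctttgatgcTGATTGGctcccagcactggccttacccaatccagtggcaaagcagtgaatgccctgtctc
In both, the X box core precedes the Y box core, with 25 bases between them in H2-Aa and 24 in H2-Eb1. The X box letters were chosen after these sequences had been read. Searched on both strands, they occur in 0.779% of 32851 promoter windows of this length, and the Y box letters in 7.23%. Promoter windows were at hand for 27 members, 32 windows in all, and not for H2-Ab1. Among them the X box letters were in H2-Aa and H2-Eb1 and no other, and the Y box letters in these and Cd68. The ETS core GAGGAA, the kind of site PU.1 binds, was in 18 of the 32 member windows, or 56.2%, against 23.3% of all windows, as a match of letters and with no test.

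Of the other presentation genes, Ctss, the protease cathepsin S that trims the class II invariant chain, read 6.69, 6.16 and 6.23 in wildtype and 6.13, 6.28 and 6.04 in Sel1L-deficient islets. Its difference of -0.21 (interval -0.57 to 0.14) rested largely on wildtype replicate 1 and was -0.05 without it. Cd86, a co-stimulatory ligand, was lower on all 3 Sel1L-deficient arrays, with a difference of -0.19, but its values of 2.42 to 2.79 were below the array medians.

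Complement C1q, a product of macrophages, had 0 of 3 chains past the threshold. C1qa read 6.01, 4.96 and 5.13 in wildtype and 5.16, 4.99 and 5.42 in Sel1L-deficient islets. Wildtype replicate 1 stood apart from the rest, and the difference of -0.18 became 0.14 without it. C1qb read 6.51, 6.21 and 5.88 in wildtype and 5.68, 6.06 and 5.88 in Sel1L-deficient islets, a difference of -0.33 (interval -0.72 to 0.07), or -0.17 without wildtype replicate 1. C1qc, the dimmest chain here, differed by 0.04.

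Among Fc receptors, their adaptors and the phagocyte oxidase, 0 of 5 members passed. Fcer1g, the signalling chain that Fc receptors share, read 6.14, 6.01 and 5.90 in wildtype and 5.37, 5.91 and 5.51 in Sel1L-deficient islets. Sel1L-deficient replicate 2 lay just above the lowest wildtype array, and the others below it. The difference was -0.42 ± 0.15 (SE), with an interval of -0.78 to -0.07 that left out 0, an unadjusted p of 0.0244 and an adjusted p of 0.431 in limma. Tyrobp, the adaptor DAP12, read 4.28, 4.04 and 3.97 in wildtype and 3.42, 4.23 and 3.99 in Sel1L-deficient islets. Its difference of -0.22 rested on Sel1L-deficient replicate 1 and was 0.01 without it. Cybb, the catalytic subunit of the oxidase, differed by -0.26 (interval -0.72 to 0.20), and by -0.04 without wildtype replicate 1. The Fc receptors Fcgr1 and Fcgr3 differed by 0.10 and -0.27 from means of 2.63 to 3.21.

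Pan-leukocyte genes had 0 of 6 members past the threshold. Lcp1, the actin bundler L-plastin, read 5.04, 4.79 and 4.98 in wildtype and 4.73, 4.63 and 4.72 in Sel1L-deficient islets. It was the only brighter member whose groups did not overlap, with a difference of -0.24 (interval -0.49 to 0.01, limma adjusted p = 0.543). Ptprc, which encodes the leukocyte phosphatase CD45, differed by 0.06 (interval -0.41 to 0.52), by 0.29 without wildtype replicate 1. Cd53, a leukocyte tetraspanin, read 4.49, 4.45 and 3.53 in wildtype and 4.20, 3.74 and 3.70 in Sel1L-deficient islets, so wildtype replicate 3 was the lowest of all. Coro1a, an actin regulator of leukocytes, differed by 0.16, and Laptm5 and Cd52, a lysosomal membrane protein and a surface glycoprotein of lymphocytes, by -0.19 and -0.08 from values below the array medians.

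Lymphocyte genes were dim on all arrays. Cd3e and Cd3g, chains of the T cell receptor complex, read 1.41 to 1.98 on all arrays, and Cd8a, the co-receptor of cytotoxic T cells, 1.84 to 2.72. All 3 lay below the array medians throughout, and Cd8a was highest in Sel1L-deficient replicate 3. Cd79a, a chain of the B cell receptor, read 2.70 to 3.22. The differences of these 4 genes ran from -0.08 to 0.20. At these levels neither presence nor absence of lymphocytes could be read from the arrays.

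Lists of related genes were tested in the same fit. Ifi30, which encodes the lysosomal thiol reductase GILT that unfolds antigens for class II loading, fell 1.71-fold. It read 7.47, 7.39 and 7.40 in wildtype and 6.61, 6.62 and 6.71 in Sel1L-deficient islets. The groups lay far apart beside their spread, with means of 7.42 ± 0.04 and 6.65 ± 0.05 (SD, n = 3 each) and a difference of -0.77 ± 0.10 (SE; limma adjusted p = 0.032). The difference held at -0.80 to -0.75 when any array was left out, but with 5 arrays the adjusted p rose above the threshold whichever of the 6 was left out, to 0.0754 to 0.145. It was 1 of 13 other class II genes to pass, all of the rest not passing, with a list median of 0.05. Ciita, the class II co-activator, and H2-DMa and H2-DMb1, chains that load peptides onto class II molecules, differed by -0.09, 0.27 and 0.28, and of these only H2-DMa stood above the array medians. Whether leukocytes or other islet cells gave the Ifi30 signal was not tested.

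In the list of other macrophage and monocyte genes 0 of 26 passed, with a median of 0.02. Its brightest genes, Lpl, a lipase, and Sirpa, the CD47 receptor, are not confined to macrophages and differed by -0.14 and -0.01. Ligands and receptors of the CSF and chemokine systems had 0 of 12 past the threshold and a median of -0.01, with -0.15 for Csf1, the ligand of Csf1r, and -0.21 for Csf2ra. Fc receptor and DAP12 signalling genes had 0 of 13 and a median of 0.09. Inpp5d, a lipid phosphatase, differed by 0.13 and Plcg2, a phospholipase, by -0.57. The phagocyte oxidase list had 0 of 4 and a median of 0.05, with -0.20 for Cyba and 0.20 for Rac2.

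Markers of other leukocytes were mostly dim. T cell genes had 0 of 12 past the threshold (median 0.03; Thy1 0.15, Il7r 0.05), and 10 of the 12 lay below the array medians on every array. Thy1, the only 1 of the 12 with a mean above the highest array median, was also counted among the mesenchymal markers given below. B and plasma cell genes had 0 of 9 (median 0.06; Mzb1 -0.01, Cd22 0.09) and all 9 lay below. NK cell genes had 0 of 9 (median 0.07; Prf1 0.09, Nkg7 -0.21), with 8 below. Neutrophil and mast cell genes had 0 of 13 (median 0.00; Ltf 0.05, Csf3r 0.17), and all 13 lay below. Dendritic cell genes had 0 of 8 (median -0.09; Cd209a -0.04, Xcr1 -0.03), with 5 below. Cd209a, at 8.23 to 8.34, was the only 1 of the 8 with a mean above the highest array median. Whether dendritic cells gave its signal was not tested.

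Markers of other cells also differed between arrays. The mean deviation of the 14 endothelial markers was -0.36 to 0.01 on the wildtype arrays and 0.03 to 0.24 on the Sel1L-deficient arrays, with 0 of 14 past the threshold and a median difference of 0.38 (Kdr 0.55, Emcn 0.36). The 14 mesenchymal markers had 0 past the threshold and a median of 0.38 (Vim 0.26, Sparc 0.45), with deviations of -0.52 to 0.02 in wildtype and 0.00 to 0.33 in Sel1L-deficient islets. The 9 acinar markers, of exocrine tissue carried over in islet picking, were highest in replicate 3 of both genotypes, at 1.08 and 1.11, with 0 past the threshold and a median of -0.69 (Ctrb1 -0.49, Cpa1 -0.75). Duct markers had 0 of 6 and a median of -0.12 (Epcam -0.13, Krt7 -0.12). Of the 10 islet endocrine markers 2 fell, Slc2a2 by 1.38 and Pcsk1 by 1.05 on the log2 scale (limma adjusted p = 0.0265 and 0.041), with a median of 0.00. Both calls were lost on leaving out any array other than Sel1L-deficient replicate 3 (limma adjusted p of 0.0815 to 0.135 for Slc2a2 and 0.127 to 0.203 for Pcsk1), and without that array both stood at 0.0444. The member mean deviation was 0.20, 0.01 and -0.02 in wildtype and -0.11, -0.02 and -0.06 in Sel1L-deficient islets. On wildtype replicate 1, where the members were highest, endothelial markers were lowest, and the part of such makeup in the member values was not tested.

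**Figure D4:**
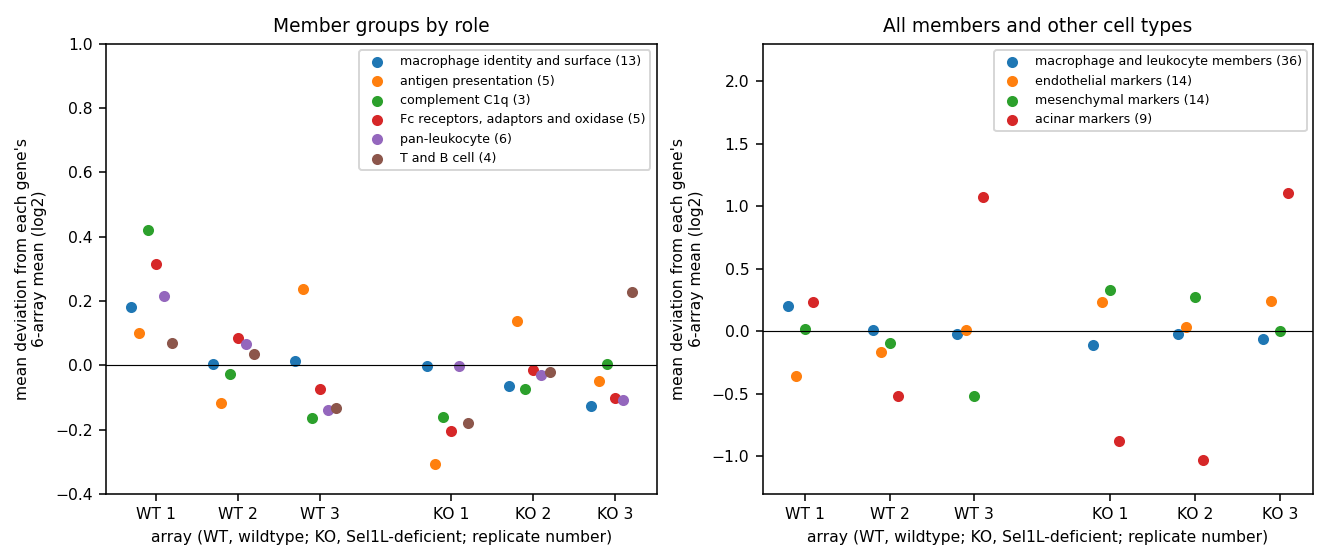
Mean deviation of each gene list from its genes' own means over the 6 arrays (log2, vertical axis) on each array (horizontal axis), for the members by role (left) and for all members beside endothelial, mesenchymal and acinar markers (right), with the number of genes in brackets. C1q and Fc receptor genes are highest on wildtype replicate 1, at 0.42 and 0.31, and acinar markers on replicate 3 of both genotypes.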

How the data were processed

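The 6 arrays were summarised by the authors with RMA, per the submitters' processing notes, and are taken here to be log2 values, since those deposited ran from 0.526 to 13.0 with medians near 3. Version, log base and filters: not given in the sources used here. No detection call, scan date or batch label was used. Of 41345 probe sets, 23521 had 1 gene symbol in the platform annotation, which can be old, 1814 had several and 16010 had none. The brightest probe set by mean stood for a gene. Differences were fitted with limma 3.58.1 in R 4.3.3 (lmFit, eBayes, two-sided) on all 22180 genes, with Benjamini-Hochberg adjustment and a threshold of 0.05. The fit was tested on simulated data. It recovered 6.6% of genes given a log2 change of 0.5 and 62.5% of those given 1, with 3.33% of its calls false. These genes were drawn from all 22180 and raised only, with noise independent between genes. The members had wider intervals, with a median width of 0.71 against 0.59 over all genes, so these shares need not hold for them. The largest member difference was -0.43, so 0 called members does not show that changes of that size were absent. The number of arrays limits the precision.

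The members and gene lists were chosen with earlier results of these data known. Named were all members, Sel1l, up to 4 called genes of each other list or its 2 brightest, and genes that check tissue and sex. Ciita, H2-DMa, H2-DMb1, Lyve1, Ccl3, Cd40, Ccl2 and Ccl5 were named after their values were seen. The roles that order the members are textbook roles, assigned after the values were seen. Same-numbered arrays of the 2 genotypes had correlations of deviations of 0.105, 0.072 and 0.21, and were not treated as pairs.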

Additional observations from a re-analysis of the deposited data

How the results depend on the processing

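The counts of 0 members higher and 0 lower held in all 14 alternatives run, with a smallest member adjusted p of 0.256. Sel1l, the deleted gene, had a limma adjusted p of 0.0312 in the reported fit. It passed in 6 of the 14 alternatives and missed the threshold in 8, at 0.0016 to 0.196 in limma. A count of 0 in these fits therefore says little about changes as small as those of the members. The member median lay between -0.151 and -0.053 when an array was left out, the last without wildtype replicate 1, and was -0.22 over the 18 members above the median of all genes, a smaller set. Among the 21 members brighter than the array medians, a limit chosen after seeing the data, it was -0.18. The sign of a member's difference changed in 36 of 486 refits, over 16 members, Tyrobp having the largest reported difference among them, and 20 members kept their sign throughout. Many of the 486 refits could not change a sign, because they left each member's difference as reported. These were the refits with the replicate block, the Y-linked covariate or the trended and robust prior. The limit to genes above the median and the test of each probe set were of this kind too. All genes called higher numbered 20, from 1 to 13 with an array left out, 1 on the 4 arrays with Xist on and 44 with a trended and robust prior. Those called lower numbered 34, from 3 to 16 with an array left out, 22 with the replicate block, 0 on the arrays with Xist on and 89 with the trended and robust prior. On the 4 arrays with Xist on, 1865 of 22180 genes and 5 of 36 members had an unadjusted p under 0.05 in limma. In the reported fit 2103 genes and 1 member did, so the members' share went from below that of all genes to above it. With the replicate block 0 members were called, with a median of -0.14 and 36 genes called in all, against 54. Across genotypes every array correlated best with the one of its own number, a hint from the data and not from the design. The largest of these correlations, 0.21, was between the replicate 3 arrays, which shared Y-linked transcripts and the highest acinar markers. The part of either in that correlation was not tested. Ifi30 had an adjusted p of 0.0711 with the replicate block and 0.196 on the arrays with Xist on, and passed in 6 of the 14 alternatives. Scanner files were not analysed here, so no other background correction was run.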

Other observations

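Several genes of macrophage traffic and signalling outside the members differed without overlap and did not pass the threshold in the reported fit. They were picked after their values were seen, from lists in which most genes did not differ so. Without overlap, 1 of 26 other macrophage genes and 1 of 13 signalling genes lay lower. The same held for 2 of 12 ligand and receptor genes and 2 of 13 other class II genes, where 1 lay higher. These 2 class II genes were Cd40 and Ifi30, of which Ifi30 passed the threshold. Over all genes, 7.84% lay lower and 7.22% higher without overlap. Lyve1, a hyaluronan receptor of lymphatic vessels and of some tissue macrophages, read 5.13, 5.10 and 5.80 in wildtype and 4.03, 3.80 and 4.89 in Sel1L-deficient islets, a difference of -1.10 (interval -1.78 to -0.42, limma adjusted p = 0.283). Lyve1 was higher in replicate 3 of both genotypes, and it passed in limma with the replicate block, at an adjusted p of 0.0333, and when arrays with Y-linked transcripts had a covariate, at 0.0188, the adjusted p lying between 0.0973 and 0.518 in the other alternatives. Ccl3, a chemokine made by macrophages and other cells, read 3.65, 3.85 and 3.80 in wildtype and 3.12, 3.02 and 3.26 in Sel1L-deficient islets, a difference of -0.63 (limma adjusted p = 0.112). Plcg2 read 4.51, 4.46 and 4.50 in wildtype and 4.04, 3.79 and 3.91 in Sel1L-deficient islets (limma adjusted p = 0.125). Cd40, a co-stimulatory receptor, differed by -0.47 (limma adjusted p = 0.371).

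The chemokine genes Ccl5 and Ccl2 were high on 1 array. In Sel1L-deficient replicate 2 Ccl5 read 6.02, where the remaining 5 arrays lay at 3.85 to 4.16, and its difference of 0.78 was 0.13 without that array. Ccl2 read 5.06 there against 3.37 to 4.04, and its difference of 0.42 was -0.03 without it.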
